A study of Mus musculus with 6 samples.

Results

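Genes for the enzymes that build and cap mucin-type and related glycans were followed in the epithelium of the embryonic mouse small intestine. They were picked by a rule on gene names. The stems were Galnt, Galntl, Gcnt, B3gnt, B3galt, B4galt, B4galnt, St3gal, St6gal, St6galnac, St8sia, Fut, C1galt1 and Chst. Every gene whose symbol begins with a stem and continues with a number only was taken, plus C1galt1c1. This gave 90 of the 19938 genes measured. The rule uses no expression value, but this set and the other lists were chosen with earlier results of these data known. Their shares, set beside those of all genes, are therefore descriptions only. Levels do enter the choice of probe set (the array's measurement of a gene). Where a gene had several, as 3 of the 90 did, the one with the highest mean over all arrays was kept. Of the 90, 14 are Chst genes, which encode sulfotransferases and not glycosyltransferases, and C1galt1c1 encodes a chaperone, so the set is wider than mucin glycosyltransferases.

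Most secreted and membrane proteins of the gut are glycosylated in the Golgi. On mucins, a GalNAc-transferase first links N-acetylgalactosamine (GalNAc) to a serine or threonine, core enzymes add galactose or N-acetylglucosamine (GlcNAc), other enzymes lengthen the chain with galactose and GlcNAc, and the chain is then capped with fucose, sialic acid or sulfate. These caps set the charge of the mucus and decide which microbes and lectins can bind it, and in the gut they differ between goblet cells, which secrete mucins, and enterocytes, which carry glycans on their brush border. Several enzymes of the same families act on N-linked glycans, glycolipids or proteoglycans instead.

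RNA from isolated epithelial cells of the small intestine at E18.5 (embryonic stage) was measured on 6 whole-transcript arrays, 3 labelled Gata4Gata6 cKO (double conditional knockout, written cKO here) and 3 labelled control. The proteins GATA4 and GATA6 bind DNA at GATA sequences and act in the gut endoderm. The strain, the Cre driver, the deleted exons, the controls' own alleles and whether each array held RNA of a single animal could not be read from the labels. The p-values therefore reflect the spread among 6 samples and no more, and part of that spread may be technical. Levels are the deposited log2 values, 1 probe set per gene. A change is the mean of the arrays labelled cKO minus the mean of the arrays labelled control on the log2 scale, ± its standard error (SE), and a gene rose or fell where limma's p, adjusted by Benjamini-Hochberg over the 19938 genes, was under 0.05. Precision is limited by having 3 arrays per group.

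The targeted genes went against the labels. Gata4 stood at 11.34, 11.39 and 11.51 on the arrays labelled cKO, against 10.95, 10.93 and 10.96 on the control arrays, and Gata6 at 12.72, 12.69 and 12.72 against 12.23, 12.28 and 12.27. Both were higher on every array labelled cKO, by 0.47 ± 0.075 and 0.45 ± 0.065 (limma adjusted p = 0.0101 and 0.0067). A probe set sums probes along the gene and may count exons outside a deletion, but the deleted exons are not known. The cause of the higher Gata4 and Gata6 levels was not tested. Each direction below rests on the labels. Epithelial markers were present on all arrays. The 12 listed, among them Epcam, Vil1 and Cdx2, had a summed level of 15.79 to 15.95 on the arrays labelled cKO and 15.92 to 15.96 on the controls. Of the 12, 2 rose and 1 fell (25% called, beside 12.9% of all genes). Fabp2, an enterocyte gene of the list, fell by 2.73 on the log2 scale (adjusted p = 0.00163). Epcam and Krt8 rose by 0.32 each (adjusted p = 0.0372 and 0.0454). The array labelled cKO 2 stood apart, with a summed hepatocyte marker level (13 of 15 listed genes measured) of 16.61, where cKO 1 and cKO 3 had 13.85 and 13.92 and the controls 13.05 to 15.25, and an erythroid level (10 of 11) of 14.27, where cKO 1 and cKO 3 had 10.46 and 10.63 and the controls 10.69 to 12.21. In each list 0 values were exactly 0. These sums are log2 values of added linear levels. Where leaving out cKO 2 moves one of the 90 genes across the threshold, the value without it is given.

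Of the 90 genes, 29 changed in the arrays labelled cKO, with 21 rises and 8 falls. That is 32.2%, beside 12.9% of all genes tested. Rises made up the larger share, with 5.52% of all genes rising and 7.42% falling. A change of at least 2-fold was seen for 17 of the 29, 13 higher and 4 lower, beside 3.64% of all genes (1.8% higher and 1.84% lower). The groups did not overlap for 43 of the 90 genes, 31 with every array labelled cKO above every control and 12 below, beside 32.6% of all genes (14.3% above and 18.3% below). The median size of change was 0.22 among the 90 and 0.15 among all genes. Among the 59 members above the lower tertile of mean level (7.5), 44.1% changed, beside 17.3% of all genes above it. Of the 31 dimmer members 3 changed.

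**Figure D1:**
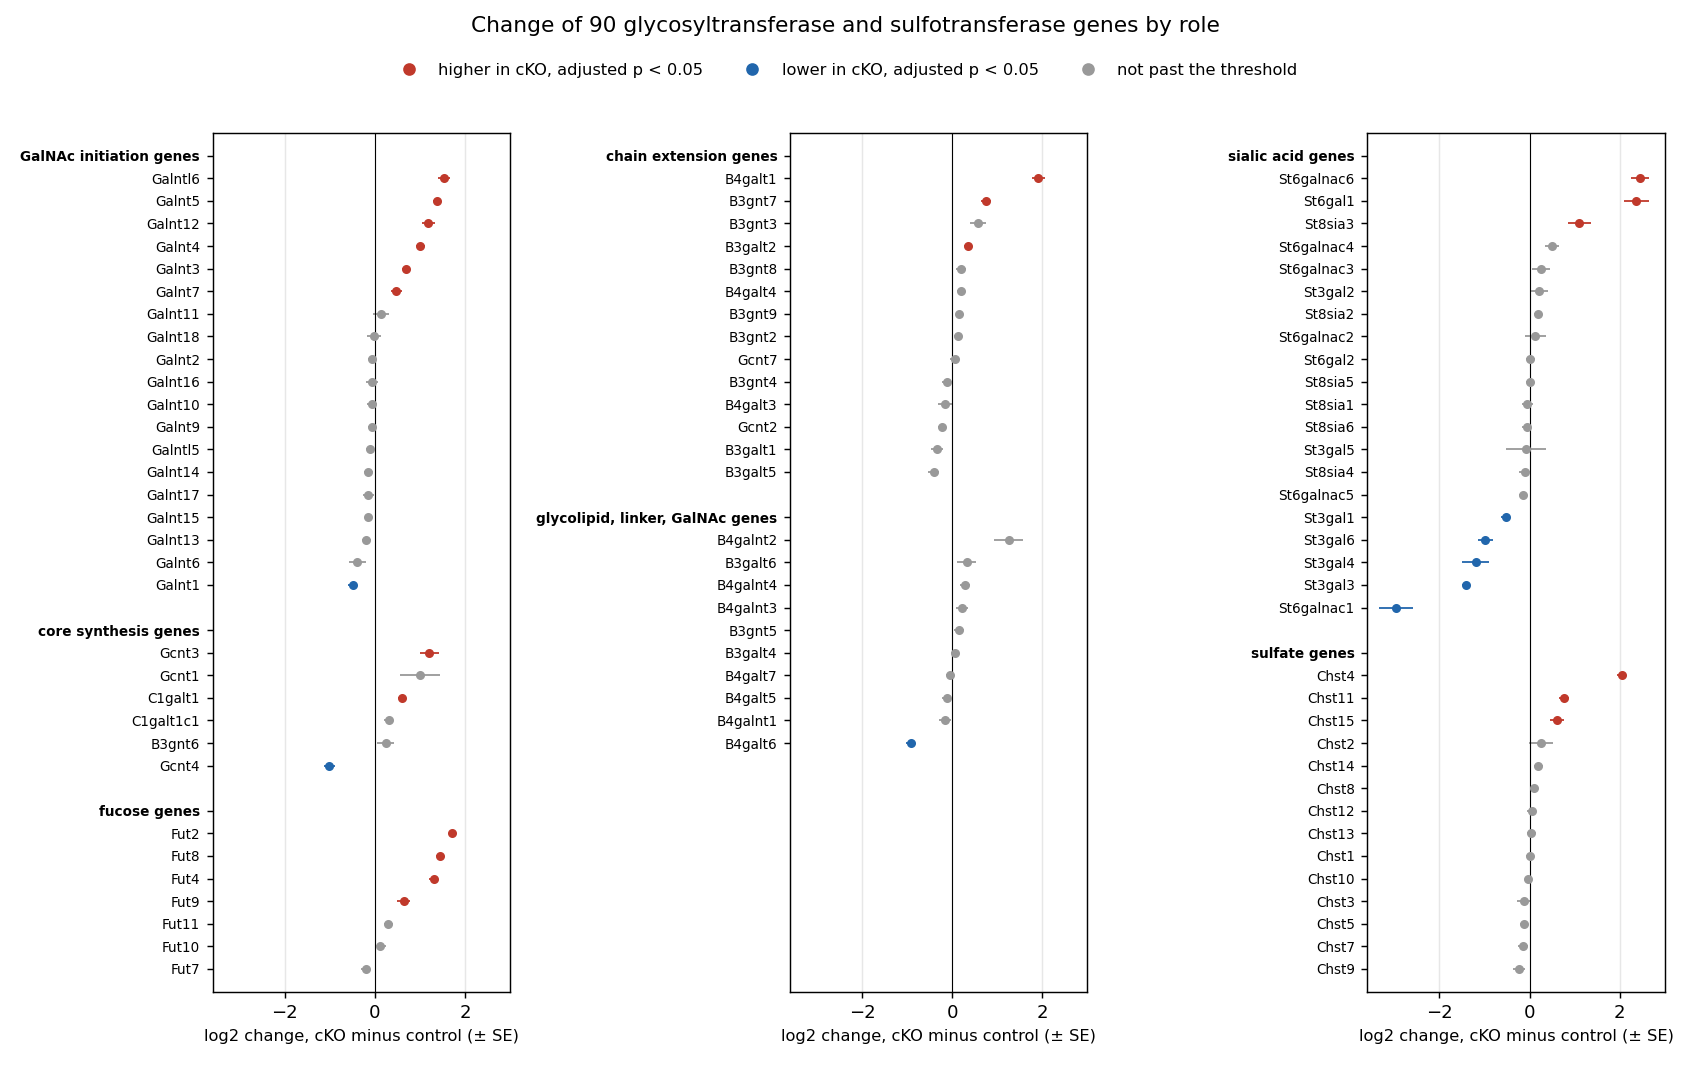
Log2 change (arrays labelled cKO minus control, x axis, ± SE) of each of the 90 genes, grouped by role, with 3 arrays per group. Red points mark the 21 genes that rose, blue points the 8 that fell and grey points the 61 that did not pass. Among the fucose genes 4 points are red and 0 blue, with Fut7 in grey to the left of 0. The sialic acid genes hold both the largest rise and the largest fall.

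By role, 6 of 19 initiation genes, 2 of 6 core genes, 3 of 14 chain extension genes, 4 of 7 fucose genes, 3 of 20 sialic acid genes and 3 of 14 sulfate genes rose. Falls numbered 5 among the sialic acid genes and 1 each among the initiation, core and glycolipid and linker genes. Beside these counts, 5.52% of all genes rose and 7.42% fell. The share called was 10% in the glycolipid, linker and terminal GalNAc group, near the 12.9% of all genes. It was 21.4% in the chain extension group and 21.4% in the sulfate group. No gene fell among the fucose, sulfate and chain extension genes, and no gene rose among the 10 of the glycolipid, linker and terminal GalNAc group, where B4galnt2 lay close to the threshold and passed it under other settings given with its values.

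**Figure D2:**
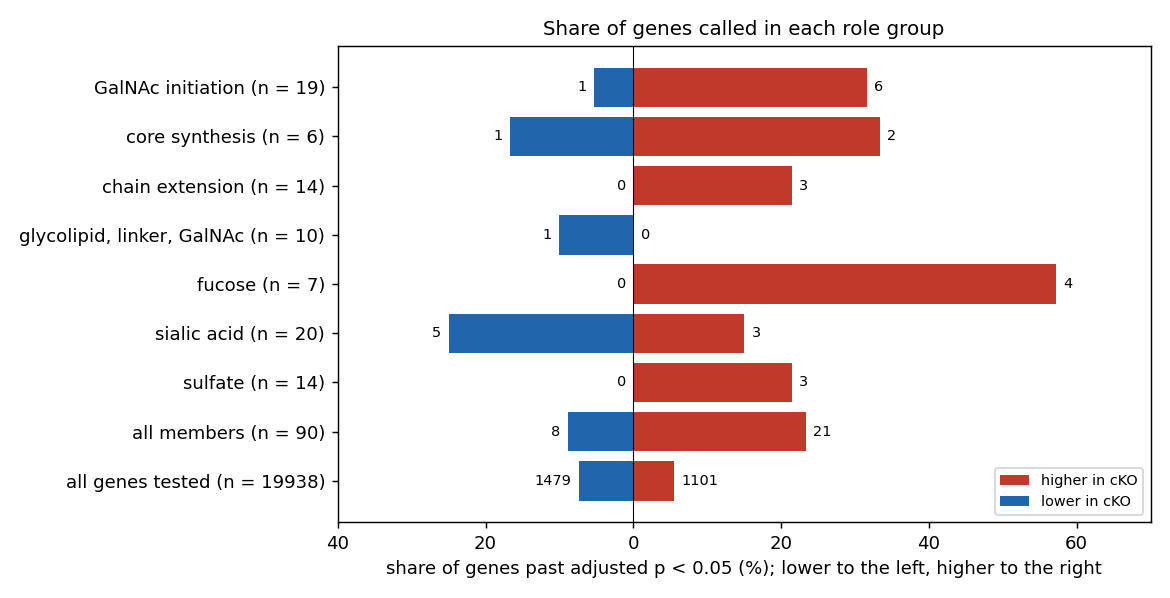
Share of genes in each role group that passed the adjusted p threshold, in percent, with rises to the right of 0 and falls to the left, and the number of genes at each bar end. Across all members 21 rose and 8 fell, against 1101 and 1479 of the 19938 genes tested, and the sialic acid genes have the most falls (5 of 20).

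Because the study concerns GATA factors, the 250 bases before each annotated start were searched for a GATA hexamer, on both strands: the letters AGATAA and also AGATAG, with TGATAA and also TGATAG. Windows (RefSeq, GRCm38.p6) were at hand for 68 of the 90 genes, 15 that rose, 4 that fell and 49 that did not pass. A hexamer was found for 4 of the 15, 2 of the 4 and 11 of the 49, or 25% of the 68, beside 29.7% of the 27025 genes with a window. The hexamer was thus found in 6 of 19 changed genes, a share near that of all genes. Some genes have several starts, and 1 window with a hexamer is shown for 5 of these 6 genes (not Gcnt4), so that its place can be seen. The capitals mark the hexamer or its reverse complement, each window is read 5′ to 3′ along the gene's strand, and the last base is the one before the start. The first 4 genes rose and St3gal6 fell on the arrays labelled cKO. The windows lie at chr1:86302971-86303220 (+) for B3gnt7, chr12:77237854-77238103 (+) for Fut8, chr8:58911628-58911877 (-) for Galntl6, chr16:23224490-23224739 (+) for St6gal1 and chr16:58524254-58524503 (-) for St3gal6.
B3gnt7: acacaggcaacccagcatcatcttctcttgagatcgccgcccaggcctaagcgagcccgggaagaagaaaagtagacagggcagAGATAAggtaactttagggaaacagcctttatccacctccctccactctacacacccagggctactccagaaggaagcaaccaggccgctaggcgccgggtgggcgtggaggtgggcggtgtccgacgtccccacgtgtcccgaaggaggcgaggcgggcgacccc
Fut8: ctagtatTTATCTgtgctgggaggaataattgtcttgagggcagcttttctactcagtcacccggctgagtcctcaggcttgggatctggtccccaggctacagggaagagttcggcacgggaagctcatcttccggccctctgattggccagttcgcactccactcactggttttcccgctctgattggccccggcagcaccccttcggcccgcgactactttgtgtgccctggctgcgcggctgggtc
Galntl6: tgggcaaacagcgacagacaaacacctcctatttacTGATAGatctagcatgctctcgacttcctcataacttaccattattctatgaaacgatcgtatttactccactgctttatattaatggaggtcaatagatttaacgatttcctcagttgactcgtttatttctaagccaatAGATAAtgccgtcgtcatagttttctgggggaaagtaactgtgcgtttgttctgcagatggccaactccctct
St6gal1: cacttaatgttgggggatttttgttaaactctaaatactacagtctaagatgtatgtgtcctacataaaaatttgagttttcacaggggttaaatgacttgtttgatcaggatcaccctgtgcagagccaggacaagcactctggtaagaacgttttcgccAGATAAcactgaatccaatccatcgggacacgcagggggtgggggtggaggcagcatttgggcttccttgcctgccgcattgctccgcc
St3gal6: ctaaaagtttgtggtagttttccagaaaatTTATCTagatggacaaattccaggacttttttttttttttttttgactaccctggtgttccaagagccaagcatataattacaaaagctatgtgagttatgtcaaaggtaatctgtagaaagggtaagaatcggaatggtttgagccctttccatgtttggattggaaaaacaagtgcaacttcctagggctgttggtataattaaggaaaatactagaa
The hexamer begins 166 bases before the start in B3gnt7, 243 in Fut8, 89 in St6gal1 and 220 in St3gal6, and Galntl6 holds a pair, at 214 and 73. Chst4, B4galt1 and St6galnac6, which rose by more than 3-fold, hold no such letters in theirs. A match is a description of the letters and not of a binding site.

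Among the Galnt and Galntl genes, 6 of 19 rose and 1 fell (36.8% called, beside 12.9% of all genes). They are grouped by name as initiation genes, although not every member is known here to start chains. Galnt5 stood at 9.15, 9.02 and 9.27 on the arrays labelled cKO, against 7.80, 7.80 and 7.68 on the controls, a change of 1.39 ± 0.09 (2.61-fold, adjusted p = 0.000423). Galnt12 stood at 10.45, 10.03 and 10.43 against 9.27, 9.16 and 8.91 on the controls (change 1.19 ± 0.15, adjusted p = 0.00416). Galnt4, which like Galnt12 can act on peptides that already carry GalNAc, stood at 10.73, 10.57 and 10.84 against 9.79, 9.76 and 9.56 (change 1.01 ± 0.10, adjusted p = 0.00202). In all of them the lowest array labelled cKO lay above the highest control. Galnt4 lies within the span of Poc1b in the RefSeq table, and the Poc1b probe set changed by 0.27 (adjusted p = 0.253).

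Galntl6 stood at 8.66, 8.30 and 8.63 on the arrays labelled cKO, against 7.09, 7.08 and 6.83 on the controls (change 1.53 ± 0.13, adjusted p = 0.000978). It is the member whose probe sets disagree most among those that changed: its other 2, which are dimmer, changed by −0.21 and 0.55 (adjusted p = 0.32 and 0.0664 in a fit of all single-gene probe sets). Galnt3 rose less, with little spread in either group: 10.06, 9.88 and 10.05 on the arrays labelled cKO against 9.39, 9.28 and 9.25 on the controls (change 0.69 ± 0.085, adjusted p = 0.0038). Galnt7, which also acts on glycosylated peptides, stood at 11.12, 10.70 and 10.94 against 10.47, 10.50 and 10.36 (change 0.48 ± 0.12, adjusted p = 0.0485), a call that held only when cKO 2 was left out (otherwise adjusted p up to 0.153).

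Galnt1, one of the broadly expressed members, was the only initiation gene to fall. It stood at 10.19, 10.30 and 10.08 on the arrays labelled cKO, against 10.54, 10.74 and 10.76 on the controls (change −0.49 ± 0.098, adjusted p = 0.0224), and the call was lost without cKO 1, cKO 3, control 2 or control 3 (adjusted p up to 0.0883). Galnt2, another broadly expressed member, had a change of −0.06 with a 95% interval of −0.26 to 0.14. The other 11 initiation genes that did not pass had changes between −0.39 (Galnt6) and 0.13 (Galnt11). The family median was −0.06, so the rises concern single members and not the family as a body.

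**Figure D3:**
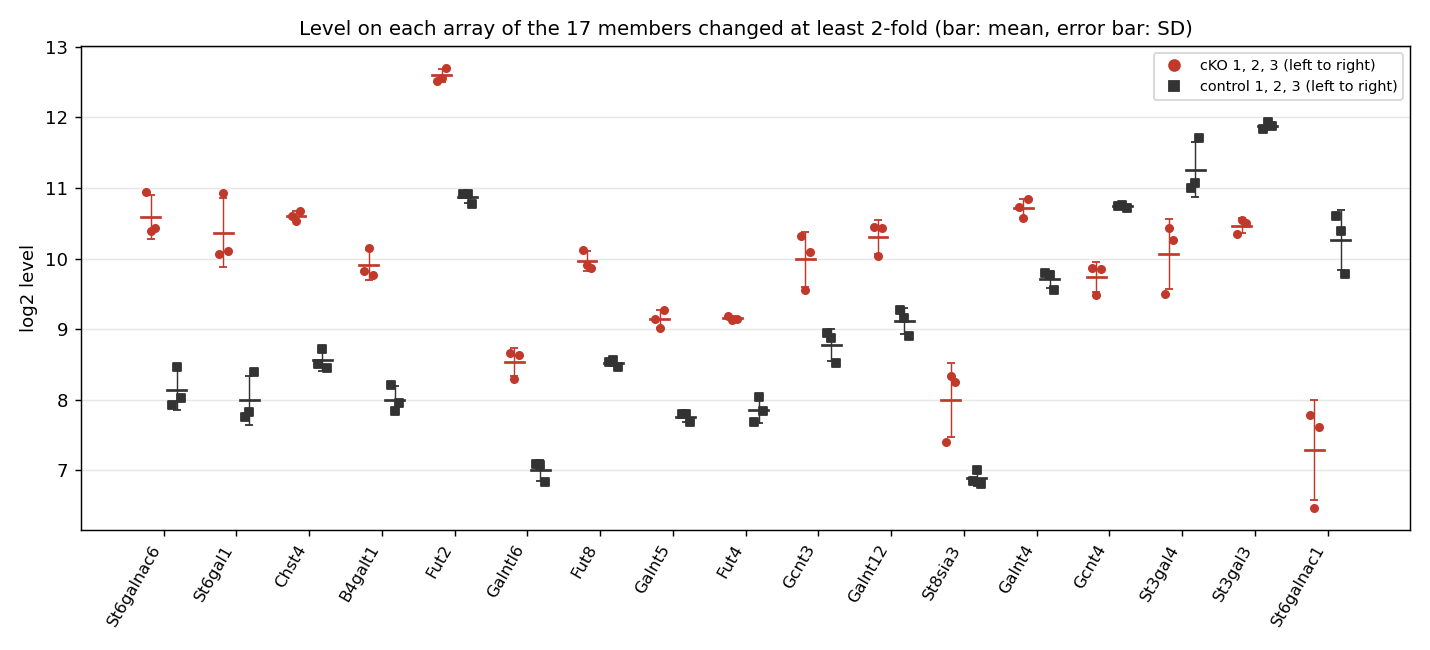
Deposited log2 level on each of the 6 arrays for the 17 genes changed at least 2-fold, ordered from the largest rise (St6galnac6, 2.45) to the largest fall (St6galnac1, −2.97), with arrays labelled cKO in red on the left and controls in dark squares on the right of each gene. Bars are means and error bars SDs (n = 3 arrays each). The groups do not overlap in these 17 genes, which were picked for their change (32.6% of all genes do not overlap).

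In core synthesis 2 of 6 genes rose and 1 fell (50% called, beside 12.9% of all genes). C1galt1, which adds galactose to make the core 1 structure, stood at 11.29, 11.22 and 11.36 on the arrays labelled cKO, against 10.80, 10.59 and 10.67 on the controls (change 0.60 ± 0.085, adjusted p = 0.00639). C1galt1c1 (Cosmc), the chaperone it needs to fold, stood at 8.73, 8.54 and 8.87 against 8.39, 8.40 and 8.44, a change of 0.30 ± 0.099 that did not pass (adjusted p = 0.106) although the groups did not overlap. Without cKO 2 it was 0.39 (adjusted p = 0.0416). B3gnt6, the core 3 synthase, had a change of 0.24 with a 95% interval of −0.20 to 0.67.

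The genes that make branched core 2 differed in direction. Gcnt3, the mucin-type branching enzyme of secretory epithelia, stood at 10.32, 9.56 and 10.09 on the arrays labelled cKO, against 8.94, 8.88 and 8.52 on the controls (change 1.21 ± 0.21, 2.31-fold, adjusted p = 0.0146). Gcnt4, another core 2 enzyme, stood at 9.86, 9.49 and 9.85 against 10.75, 10.76 and 10.72 (change −1.01 ± 0.12, adjusted p = 0.00293). Every array labelled cKO was above the controls for Gcnt3 and below them for Gcnt4. The Gcnt3 call was lost without cKO 3, control 2 or control 3 (adjusted p up to 0.0561) and held without cKO 2, at a change of 1.43 (adjusted p = 0.00313). Gcnt1, the more widely expressed core 2 enzyme, stood at 7.05, 8.47 and 6.83 on the arrays labelled cKO, against 6.72, 6.04 and 6.60 on the controls, a change of 1.00 ± 0.44 that did not pass (adjusted p = 0.214). It was 0.49 without cKO 2.

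Of the genes that lengthen and branch chains, 3 of 14 rose (21.4%, beside 5.52% of all genes rising). B4galt1, the main enzyme that adds galactose to GlcNAc, stood at 9.82, 10.15 and 9.76 on the arrays labelled cKO, against 8.21, 7.84 and 7.96 on the controls (change 1.91 ± 0.14, 3.75-fold, adjusted p = 0.000665). Its relatives B4galt3 and B4galt4 had changes of −0.15 and 0.19, neither past the threshold, so the rise was found in 1 of the 3 B4galt genes of this role. B3gnt7, which adds GlcNAc to lengthen chains and in humans takes part in keratan sulfate synthesis, stood at 9.44, 9.05 and 9.20 against 8.42, 8.49 and 8.50 (change 0.76 ± 0.11, adjusted p = 0.00725). B3galt2, a galactosyltransferase of type 1 chains, stood low, at 6.20, 6.23 and 6.37 against 5.83, 5.99 and 5.95 (change 0.34 ± 0.084, adjusted p = 0.0455), and its call was lost with any array left out (adjusted p = 0.0778 without cKO 2 and up to 0.139).

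B3galt5, which makes type 1 chains in the gut, stood at 6.70, 6.53 and 6.47 on the arrays labelled cKO, against 7.17, 6.98 and 6.77 on the controls. The change of −0.41 ± 0.12 did not pass (adjusted p = 0.0865), though the groups did not overlap. B3gnt3, which extends core 1 chains, had a change of 0.58 ± 0.18, also without overlap and not past the threshold (adjusted p = 0.0883). The other 9 of these genes had changes between −0.34 (B3galt1) and 0.19 (B3gnt8).

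The genes for glycolipid synthesis, for the linker of proteoglycans and for terminal GalNAc gave 1 call among 10 (10%, near the 12.9% of all genes). B4galt6, a lactosylceramide synthase, stood at 8.97, 9.26 and 9.27 on the arrays labelled cKO, against 10.04, 10.05 and 10.18 on the controls (change −0.92 ± 0.11, adjusted p = 0.00304). B4galt5, the other lactosylceramide synthase, stood at 10.87, 10.98 and 11.10 against 11.07, 11.04 and 11.22, with a change of −0.13 and a 95% interval of −0.35 to 0.10. The fall therefore passed for one of this pair of enzymes, and the difference between them was not tested.

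B4galnt2, which adds the terminal GalNAc of the Sda antigen in gut epithelium, stood at 12.45, 11.53 and 12.20 on the arrays labelled cKO, against 10.72, 11.35 and 10.36 on the controls. Every array labelled cKO was above every control, but the nearest values, cKO 2 and control 2, were close, and the change of 1.25 ± 0.32 did not pass (95% interval 0.48 to 2.02, adjusted p = 0.0524). Without cKO 2 the change was 1.52 (adjusted p = 0.0207). Without cKO 2 and control 3 it was 1.29 (adjusted p = 0.0371). B4galnt2 also passed without control 2, with log2(2^value + 32), with array weights, and without the lower tertile of genes or those under the median level, and it did not pass under the other settings. B4galnt4 had a change of 0.29 ± 0.12 (adjusted p = 0.185), with levels of 9.03, 8.86 and 9.16 against 8.78, 8.86 and 8.55.

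Of the fucose genes 4 of 7 rose and 0 fell (57.1%, beside 5.52% of all genes rising). Their median change was 0.64, against −0.01 for all genes. Fut2, the secretor enzyme that makes the H antigen of gut epithelium and mucins, stood at 12.52, 12.56 and 12.70 on the arrays labelled cKO, against 10.92, 10.92 and 10.77 on the controls (change 1.72 ± 0.086, 3.30-fold, adjusted p = 0.000197). Fut8, which adds the core fucose of N-linked glycans, stood at 10.12, 9.91 and 9.86 against 8.54, 8.56 and 8.47 (change 1.44 ± 0.091, adjusted p = 0.000381). Fut4, which makes Lewis x structures, stood at 9.19, 9.13 and 9.15 against 7.68, 8.04 and 7.84 (change 1.30 ± 0.10, adjusted p = 0.000844). These 3 genes act on different glycans. For each, every array labelled cKO was above every control, and no single array, when left out, ended the call.

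Fut9, which also makes Lewis x, was dim, at 5.89, 5.62 and 6.04 on the arrays labelled cKO, against 5.04, 5.43 and 5.17 on the controls (change 0.64 ± 0.15, adjusted p = 0.0369). Its call was lost without cKO 1, cKO 3, control 1 or control 3 (adjusted p up to 0.123). Fut11 stood at 8.77, 9.01 and 8.77 against 8.68, 8.42 and 8.55 (change 0.30, adjusted p = 0.132), and its dimmer second probe set changed by −0.50 (adjusted p = 0.42), so no direction can be given for it. Fut7, which makes sialyl Lewis x in leukocytes, stood at 7.41, 7.35 and 7.22 against 7.42, 7.63 and 7.55 (change −0.21, adjusted p = 0.21).

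Sialic acid genes moved in both directions, with 3 of 20 higher and 5 lower (40% called, beside 12.9% of all genes). They hold the largest rise and the largest fall of the 90 genes. St6galnac1, which caps GalNAc on mucins with sialic acid to give the sialyl-Tn structure, had the largest change of the 90 genes. It stood at 7.78, 6.47 and 7.61 on the arrays labelled cKO, against 10.60, 10.39 and 9.78 on the controls, so that cKO minus control was −2.97 ± 0.38 (7.84-fold lower, adjusted p = 0.00447). The highest array labelled cKO, at 7.78, lay far below the lowest control, at 9.78. The array cKO 2 was the lowest, and without it the change was −2.56 (adjusted p = 0.00192). St6galnac2, its direct neighbour on chromosome 11 and a relative that acts on core 1 chains, stood at 11.29, 10.70 and 10.92 against 11.02, 11.12 and 10.39, a change of 0.13 with a 95% interval of −0.44 to 0.69.

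St6galnac6, which adds sialic acid to gangliosides and to sialyl Lewis a, rose most. It stood at 10.94, 10.39 and 10.43 on the arrays labelled cKO, against 7.92, 8.46 and 8.03 on the controls (change 2.45 ± 0.20, 5.46-fold, adjusted p = 0.000873). Its direct neighbour on chromosome 2, St6galnac4, stood at 8.72, 8.24 and 8.17 against 7.80, 8.04 and 7.79, and its change of 0.50 ± 0.16 did not pass (adjusted p = 0.106). Of the 6 St6galnac genes 1 thus rose, 1 fell and 4 did not pass (33.3% called, beside 12.9% of all genes).

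St6gal1, which caps galactose of N-linked glycans and is also a major enzyme of the liver, stood at 10.07, 10.93 and 10.10 on the arrays labelled cKO, against 7.76, 7.83 and 8.39 on the controls (change 2.37 ± 0.28, 5.18-fold, adjusted p = 0.00334). Its highest level within each group was on the array with the highest hepatocyte marker level, cKO 2 (16.61) and control 3 (15.25). Without both of these arrays the change was 2.29 (adjusted p = 0.0013), and without cKO 2 alone it was 2.09 (adjusted p = 0.00195). The part of liver RNA in this rise was not tested. St8sia3, which joins sialic acid to sialic acid, stood at 7.40, 8.34 and 8.25 against 6.85, 7.01 and 6.81 (change 1.11 ± 0.25, adjusted p = 0.034), a call that held only when cKO 1 was the array left out (otherwise adjusted p up to 0.117). Without cKO 2 the St8sia3 change was 0.94 (adjusted p = 0.0625).

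The St3gal genes, which place sialic acid on the end of galactose, had 4 of 6 lower and 0 higher. That is 66.7%, beside 7.42% of all genes falling, with a median change of −0.76. St3gal3, which acts mainly on type 1 chains, stood at 10.35, 10.54 and 10.51 on the arrays labelled cKO, against 11.83, 11.94 and 11.88 on the controls (change −1.42 ± 0.082, 2.67-fold lower, adjusted p = 0.000299). St3gal6, which prefers N-acetyllactosamine, stood at 9.74, 9.17 and 9.65 against 10.67, 10.42 and 10.41 (change −0.98 ± 0.17, adjusted p = 0.0126). Without control 1 the St3gal6 call was lost (adjusted p = 0.0504). St3gal6 overlaps Dcbld2 in the RefSeq table, whose probe set changed by 0.20 (adjusted p = 0.178).

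St3gal4 stood at 9.50, 10.43 and 10.26 on the arrays labelled cKO, against 11, 11.07 and 11.71 on the controls (change −1.20 ± 0.29, adjusted p = 0.0456). St3gal1, which caps the core 1 structure, stood at 11.93, 11.59 and 11.66 against 12.23, 12.27 and 12.27 (change −0.53 ± 0.10, adjusted p = 0.0209), while its dimmer second probe set changed by 0.09 (adjusted p = 0.549). The calls of these genes are less firm than that of St3gal3: the St3gal4 call held only when cKO 2 was left out (otherwise adjusted p up to 0.129), and the St3gal1 call was lost without cKO 3 or without any 1 control (adjusted p up to 0.0794). St3gal5, the GM3 ganglioside synthase, stood at 9.37, 10.78 and 9 against 9.87, 9.66 and 9.86, with a change of −0.08 ± 0.44 (adjusted p = 0.934). Without cKO 2 it fell, by 0.61 on the log2 scale (adjusted p = 0.0419).

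Among sulfotransferase genes 3 of 14 rose and 0 fell (21.4%, beside 5.52% of all genes rising). Chst4, which sulfates GlcNAc on mucin-type chains, had the smallest adjusted p of the 90 genes: it stood at 10.60, 10.53 and 10.68 on the arrays labelled cKO, against 8.50, 8.72 and 8.45 on the controls (change 2.05 ± 0.097, 4.13-fold, adjusted p = 0.000174). Chst5, its close relative, had a change of −0.13 with a 95% interval of −0.33 to 0.07. The others that rose sulfate chondroitin, a glycan of proteoglycans. Chst11 stood at 7.91, 8.14 and 7.81 against 7.16, 7.31 and 7.09 (change 0.77 ± 0.11, adjusted p = 0.00715).

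Chst15 stood at 8.72, 8.95 and 8.39 on the arrays labelled cKO, against 8.22, 8 and 8.02 on the controls (change 0.61 ± 0.15, adjusted p = 0.0496), a call that held only when cKO 3 was the array left out (otherwise adjusted p up to 0.153). Without cKO 2 the Chst15 change was 0.47 (adjusted p = 0.0789). Beside both genes stands a shift of the mesenchymal marker list (10 of 10 measured), whose summed level was 12.18 to 13.25 on the arrays labelled cKO and 11.57 to 12.05 on the controls, with 7 of its genes above and 1 below without overlap (beside 14.3% and 18.3% of all genes), 0 values at 0 and 0 past the adjusted threshold (8 at an unadjusted limma p under 0.05). Its part in these rises was not tested. Chst14, which acts on dermatan, had 8.33, 8.56 and 8.31 against 8.12, 8.22 and 8.29 (change 0.19, adjusted p = 0.28), and the remaining 10 had changes between −0.23 (Chst9) and 0.25 (Chst2). Without cKO 2, Chst9 fell, by 0.38 on the log2 scale (adjusted p = 0.04).

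**Figure D4:**
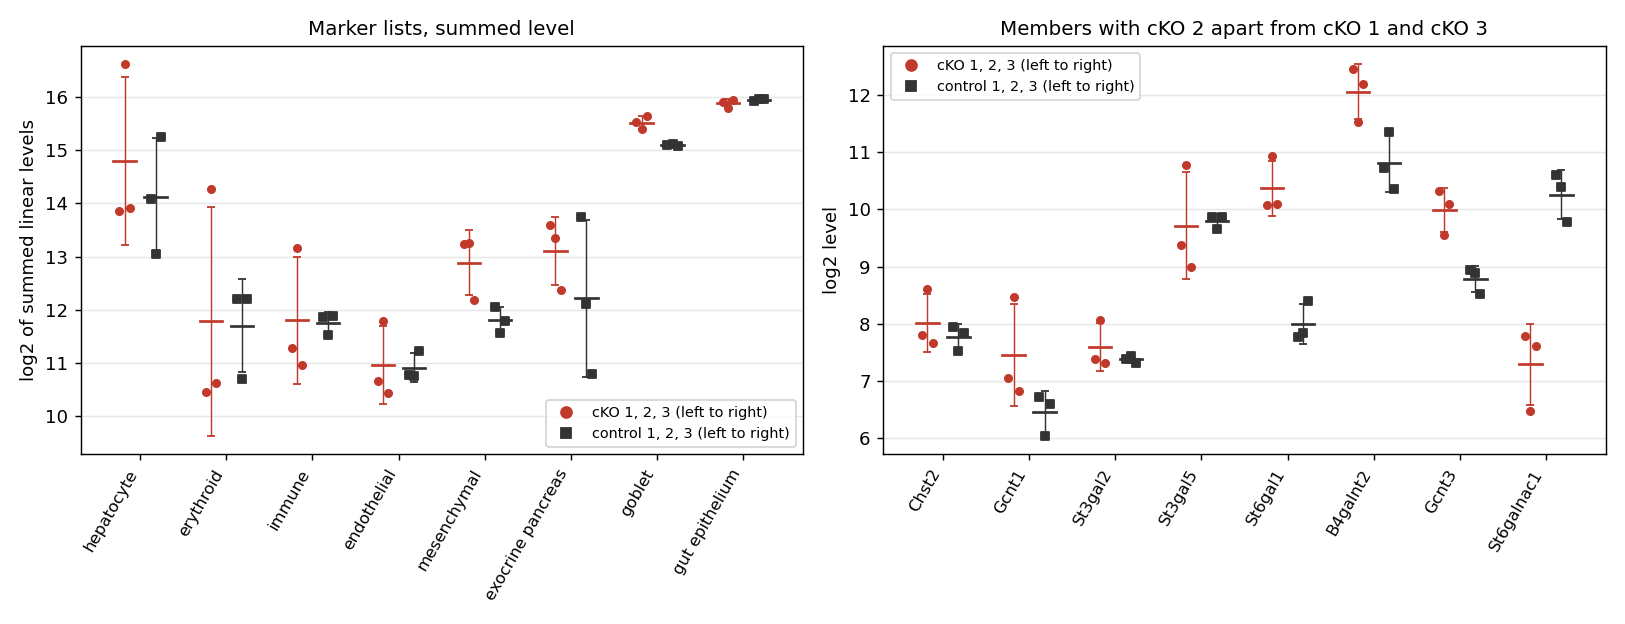
Left: log2 of the summed linear levels of each marker list per array; right: log2 level of the 8 glycan genes for which cKO 2 lay at least 0.5 from both other arrays labelled cKO. Arrays labelled cKO are red and to the left of the dark controls, with means and SDs (n = 3). The hepatocyte list is highest on cKO 2 (16.61), and St6gal1, but not Gcnt1 or St3gal5, has its other arrays labelled cKO well above the controls.

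On cKO 2, 5 of the 90 genes were at least 0.5 above both other arrays labelled cKO (Gcnt1, St3gal5, St6gal1, Chst2 and St3gal2) and 3 at least 0.5 below (St6galnac1, B4galnt2 and Gcnt3). Chst2 stood at 7.80, 8.60 and 7.66 on the arrays labelled cKO, against 7.95, 7.52 and 7.83 on the controls (change 0.25, limma adjusted p = 0.601). St3gal2 stood at 7.39, 8.07 and 7.31 against 7.39, 7.43 and 7.31 (change 0.21, adjusted p = 0.566). The immune and endothelial marker lists (11 of 11 and 9 of 9 measured, 0 values at 0) were also highest on cKO 2, at 13.16 and 11.79, where cKO 1 and cKO 3 had at most 11.28 and 10.66 and the controls at most 11.88 and 11.22. The exocrine pancreas list (6 of 9 measured, 0 values at 0) ran from 12.37 to 13.59 on the arrays labelled cKO and from 10.80 to 13.74 on the controls. The part of these cells in the 8 genes was not tested. Over the 19938 genes, which are no replicates, r was 0.956 for cKO 2 with cKO 1, 0.955 with cKO 3, and 0.988 between cKO 1 and cKO 3. With cKO 2 and control 3 both left out, 18 members rose and 5 fell, and 22 of the 29 calls stayed.

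Genes that make and carry the sugar donors were read from a separate list of 31, of which 29 were measured. In the arrays labelled cKO there were 8 rises and 6 falls (48.3%, beside 12.9% of all genes, with a median change of 0.02, against −0.01 for all genes). Gne, the enzyme that starts sialic acid synthesis from UDP-GlcNAc, stood at 12.08, 11.98 and 12.13 on the arrays labelled cKO, against 10.37, 10.48 and 10.33 on the controls (change 1.67 ± 0.08, adjusted p = 0.000176). Nans, the sialic acid synthase, stood at 10.89, 10.81 and 10.97 against 9.86, 10.02 and 9.87 (change 0.97 ± 0.083, adjusted p = 0.001). Slc35a1, which carries CMP-sialic acid into the Golgi, stood at 9.87, 9.69 and 9.98 against 8.63, 8.82 and 8.54 (change 1.18 ± 0.11, adjusted p = 0.00145).

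The other sialic acid supply genes, named after their values were seen, gave less firm calls. Cmas, which activates sialic acid, changed by 0.43 (adjusted p = 0.0224), and Nanp, the phosphatase of the route, changed by −0.33 (adjusted p = 0.0478). The Cmas call was lost without cKO 1, cKO 2, control 1 or control 2 and the Nanp call without any array but cKO 2. Uap1, which makes UDP-GlcNAc, stood at 9.71, 9.79 and 9.97 on the arrays labelled cKO, against 8.45, 8.57 and 8.44 on the controls (change 1.34 ± 0.093, adjusted p = 0.00052). Gnpnat1, a step earlier in that route, and Gmds, which starts GDP-fucose synthesis, rose by 0.90 and 1.02, and Gfpt1, which opens the UDP-GlcNAc route, rose by 0.69 (adjusted p = 0.00256, 0.00307 and 0.00604). The falls, like these 3 rises, were named after their values were seen. Besides Nanp they were the nucleotide sugar transporter family gene Slc35a5 (−0.72, adjusted p = 0.00427), the galactose gene Galt (−0.52, adjusted p = 0.012), Pgm3 of the UDP-GlcNAc route (−0.57, adjusted p = 0.0239), the sulfate donor gene Papss1 (−0.52, adjusted p = 0.0338) and the transporter family gene Slc35b1 (−0.48, adjusted p = 0.041). The UDP-GlcNAc genes thus moved in both directions. Slc35a5 and Galt kept their call with every array left out in turn. Pgm3 lost its call without control 2 or any 1 array labelled cKO. Papss1 lost its call in these fits and also without control 3, and the Slc35b1 call was lost with any array left out. The count of 14 was 9 without cKO 1, without control 2, or without cKO 2 and control 3 together.

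**Figure D5:**
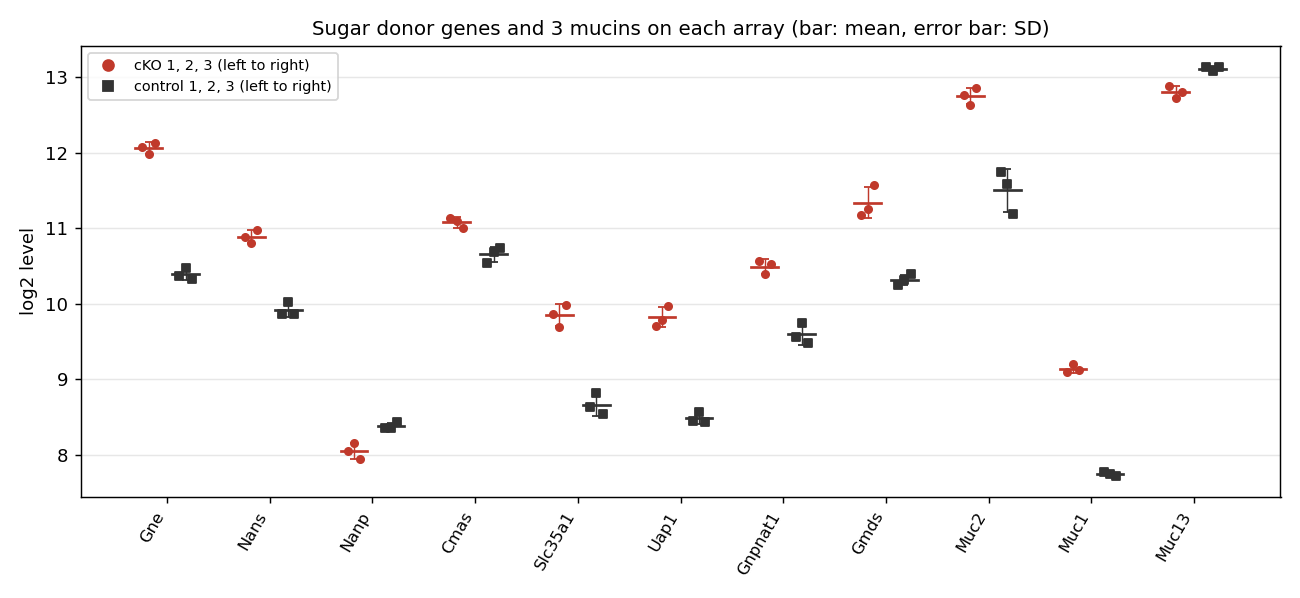
Deposited log2 level on each array of 8 sugar donor genes and 3 mucin genes, with arrays labelled cKO in red to the left of the dark controls, means and SDs (n = 3 each). Gne, Nans, Slc35a1, Uap1 and Muc1 have clear gaps between the groups, and Nanp and Muc13 are lower on the arrays labelled cKO.

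The mucin list had 12 of 14 genes measured, with 5 rises and 2 falls in the arrays labelled cKO (58.3%, beside 12.9% of all genes, with a median change of 0.28). Muc1, a membrane mucin, stood at 9.10, 9.20 and 9.12 on the arrays labelled cKO, against 7.77, 7.74 and 7.72 on the controls (change 1.40 ± 0.068, adjusted p = 0.000194). Muc20, also a membrane mucin, changed by 1.15 ± 0.10 (adjusted p = 0.00107), and Muc2, the main secreted mucin of the gut, stood at 12.77, 12.63 and 12.85 against 11.74, 11.58 and 11.19 (change 1.25 ± 0.15, adjusted p = 0.0037). Muc19 fell by 0.53 on the log2 scale (adjusted p = 0.018), a call lost without cKO 3 or control 3. Muc13, a membrane mucin named after its values were seen, fell by 0.31 (adjusted p = 0.0401), and its call was lost with any array left out. The remaining rises, also named after their values were seen, were Muc4 (0.49, adjusted p = 0.0454) and Muc16 (0.37, adjusted p = 0.0471). Both calls held only when cKO 2 was the array left out. Muc16 was dim, with a mean of 5.65 on the arrays labelled cKO and 5.28 on the controls. The count of 7 was 3 without cKO 3 or control 3, and 4 without cKO 1, control 1 or control 2.

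Goblet cell markers moved with the groups as well. Of 12 measured of 14 listed, 9 rose and 1 fell, beside 5.52% and 7.42% of all genes. Changes ran from −2.26, for the gene that fell, to 1.76, so the fall was the largest change of the list. The summed level was 15.39 to 15.64 on the arrays labelled cKO, against 15.08 to 15.11 on the controls, with 0 values at 0. In RNA of a mixed epithelium, more goblet cells and more RNA per goblet cell cannot be told apart, nor can fewer enterocytes and less RNA per enterocyte. A general fall of enterocyte RNA is not shown: Fabp2 fell, but 9 of the 12 epithelial genes did not pass, among them Vil1 (−0.11, adjusted p = 0.529). The part of goblet cells and enterocytes in the changes of the glycan genes was not tested.

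Of 35 other Golgi transferase genes measured of 38 listed, 5 were higher and 3 lower in the arrays labelled cKO (22.9%, beside 12.9% of all genes, with a median change of 0.09). A4gnt, which caps core 2 chains of gastric gland mucin, stood at 9.06, 9.01 and 9.21 on the arrays labelled cKO, against 7.61, 7.84 and 7.55 on the controls (change 1.43 ± 0.11, adjusted p = 0.000615). The N-glycan branching genes Mgat4a and Mgat4b differed in direction, at −1.17 ± 0.12 and 0.74 ± 0.089 (adjusted p = 0.00204 and 0.0036). Lfng, which modifies Notch receptors, changed by 1.33 ± 0.15 (adjusted p = 0.00313).

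Of 8 glycan-removing enzymes measured of 11 listed, 4 fell and 0 rose (50%, with a median change of −0.57), beside 7.42% of all genes falling and 5.52% rising. These were the beta-galactosidase gene Glb1 (−0.74 ± 0.095, adjusted p = 0.00428), the fucosidase genes Fuca1 (−0.64 ± 0.11, adjusted p = 0.0114) and Fuca2 (−0.63 ± 0.14, adjusted p = 0.0333), and the sialidase gene Neu3 (−0.94 ± 0.17, adjusted p = 0.0157). Glb1 alone kept its call with every array left out in turn. The count of 4 was 2 without cKO 3 or control 2 and 1 without control 3.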

How the data were processed

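The log2 levels, 35512 probe sets on 6 Affymetrix Mouse Gene 1.0 arrays, were deposited by the authors, who made them with dChip, per the series text. No source used here gives its version, background correction or normalization. The log base was read from the values (0 to 14.25), array medians were 7.73 to 7.84, and centring is unknown. Without detection calls, no gene could be called undetected.

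Symbols came from the platform annotation, checked by gene ID against RefSeq (GRCm38.p6): of 21789 probe sets with 1 gene, 21698 matched. Probe sets with several genes or none were left out, and the one with the highest mean was kept per gene, which gave 19938 genes. None of the arrays held identical values. The groups come from the source names. The test was two-sided, limma 3.58.1 run under R 4.3.3 through lmFit and then eBayes on the groups alone, and was first tested on simulated data. Replicate numbers are not stated to pair the arrays. Deviations of same-numbered arrays from their group means correlated at −0.01, −0.42 and −0.18. With 3 arrays per group these values cannot decide whether the arrays are paired.

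Members, lists and alternatives were chosen with earlier results of these data known. Named with values on every array were the 17 members changed at least 2-fold and up to 3 more per role by adjusted p, with the members on which cKO 2 stood apart. Of each other list, up to 4 genes by adjusted p and Muc2 were named. The further sugar donor genes, Muc13, Muc4 and Muc16 were added after their values were seen. Alternatives were quantile normalization, median centring, log2(2^value + 32), filters on dim genes, a trended robust eBayes, array weights, the replicate block, the mean of all probe sets, and arrays left out.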

Additional observations from a re-analysis of the deposited data

How the results depend on the processing

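The count of members that rose (21) stayed between 18 and 22 and that of members that fell (8) at 7 or 8 under normalization, centring, offset, dim-gene filters, variance model, array weights, probe set averaging and the digits-only reading of the member rule. With 1 array left out the rises ran from 15 to 20 and the falls from 5 to 10, and 19 of the 29 calls stayed in each of these fits. With the replicate block 16 rose and 6 fell, all genes called numbered 1449 against 2580, and the sugar donor count was 8 against 14. The numbers are not known to pair the arrays. Without cKO 2 and control 3 together 5 members fell, and 1586 of all genes, 9 sugar donor genes and 3 mucin genes were called. The mucin count, 7 as reported, was 4 with centred arrays and 3 without genes under the median level. With 1 array left out all genes called ran from 1482 to 2281, sugar donor genes from 9 to 11, mucin genes from 3 to 6, other Golgi transferase genes from 7 to 8 and glycan-removing genes from 1 to 4. The alternatives for the last of these lists were added after seeing the data. None of the 29 called members changed sign with 1 array left out. Among named genes that did not pass, the sign turned for Fut11 with the mean of its probe sets (−0.098), for St3gal5 without cKO 1 (0.093) or cKO 3 (0.278; 1 array out gave −0.612 to 0.278), for St3gal2 without cKO 2 (−0.027 to 0.353) or without cKO 2 and control 3 (−0.06), for Chst2 likewise (−0.037 to 0.433, and −0.005), for Galnt11 without cKO 1 (−0.012), and for St6galnac2 without cKO 1 (−0.033) or control 3 (−0.1 to 0.265). The causes were not tested. With no detection calls, low levels limit what can be seen in the 31 dim members.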
